A study of Mus musculus with 15 samples.

Results

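Infiltrating monocytes and the macrophages they give rise to were followed through 8 genes, Ccr2, Ly6c2, Plac8, Chil3, Itga4, Itgal, F10 and Tgfbi, in brain tumors and naïve brain of C57BL/6 mice. The genes were chosen by name, as transcripts that mark blood-derived myeloid cells, and each was found by its Ensembl identifier. They are 8 of the 46679 genes measured, and all 8 were among the 17481 genes that had enough counts to be tested. Blood monocytes leave the bone marrow through the chemokine receptor CCR2. They attach to activated vessels through the integrins α4β1 (VLA-4, with the α4 chain from Itga4) and αLβ2 (LFA-1, with the αL chain from Itgal) and mature into macrophages in the tissue. Classical monocytes carry the surface protein Ly6C, which is encoded in part by Ly6c2, and transcribe Plac8 and Chil3. F10 (coagulation factor X) and Tgfbi (an extracellular matrix protein induced by TGF-β) are made by macrophages of monocyte origin, whereas microglia, the macrophages that are resident in the brain, have little of these transcripts.

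The 15 samples were bulk RNA of 3 mice in each of 5 groups, which were naïve brain and tumors of the lines CT2A, GL261, 005 and Mut3 taken at the endpoint. CT2A and GL261 (mutant K-ras and p53) were induced with methylcholanthrene, 005 arose from activated H-ras and AKT in p53+/- mice, and Mut3 from loss of NF1 and p53. Each is a single transplanted line that carried GFP and firefly luciferase, so the mice of a group are replicates of the host and not of the tumor's origin. Hosts were immunocompetent C57BL/6 mice of 6 to 8 weeks at implantation, with 100000 cells implanted for each line but Mut3, for which 500000 were used. Mice were perfused with buffer before the tissue was taken, which is done to clear blood from the vessels, and the labels of the naïve mice carry the same protocol and age range. In bulk tissue, fewer cells of a type and less RNA per cell cannot be told apart, and a transcript of the tumor cells cannot be told apart from that of leukocytes.

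Levels are given as CPM (counts scaled to the library size, normalised by edgeR's TMM method) where a gene is compared between samples, and as TPM, which also accounts for transcript length, where genes are compared with each other. Total counts ranged from 3105119 in naïve brain to 13130158 in 005, and 3 counts, taken as the detection floor, corresponded to 0.214 to 0.811 CPM, which covers counting error only. Groups were compared by edgeR's quasi-likelihood test, a gene was called where the Benjamini-Hochberg adjusted p was under 0.05 and the log2 fold change was 1 or more in size, and the p-values measure the spread between mice. The summed level of 8 neuron markers, which checks the tissue labels, was 4577 to 5865 CPM in naïve brain, 3468 CPM in 005 replicate 3, 1808 CPM in GL261 replicate 2 and 44.4 to 984 CPM in the other tumor samples. Mitochondrial transcripts took 17.8% of the counts in 005 replicate 3 and 11.3% in GL261 replicate 2, against at most 7.59% in the other tumors and 15% to 24% in naïve brain. On the TPM scale the naïve samples sat higher relative to the tumors, and the median log2 difference of all tested genes against naïve brain was −0.77, −0.70, −0.45 and −0.54 for CT2A, GL261, 005 and Mut3 (log2 of TPM + 0.1), compared with −0.04, −0.08, 0.01 and 0.11 in the count fit. Of the genes called in either direction, 48.4%, 65.3%, 91.7% and 47.5% were higher in these 4 tumors in the count fit, and 20%, 23.9%, 31.9% and 22.0% with TPM.

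Ly6c2 and Chil3 have close paralogs, and their coding sequences are shown because they set how far the counts can separate the genes. Of the 836 stretches of 31 bases in the Ly6c2 transcripts, 439 (52.5%) also occur in transcripts of other genes, 403 of them in Ly6c1. Of the 1536 in Chil3, 676 (44%) are shared, 470 of them with Chil4. In the first 90 coding bases (GENCODE release M21), Ly6c2 and Ly6c1 differ at 6 positions, which are in capitals, and over the whole 396 bases they differ at 9 (97.7% identity).

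Ly6c2: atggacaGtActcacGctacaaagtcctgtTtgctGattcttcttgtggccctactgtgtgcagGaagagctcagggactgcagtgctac
Ly6c1: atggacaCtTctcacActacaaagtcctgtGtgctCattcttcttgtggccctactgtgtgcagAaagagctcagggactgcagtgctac

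Chil3 and Chil4 differ at 68 of 1209 aligned coding positions (94.4% identity), 12 of them, in capitals, in the aligned stretch from 829 to 918.

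Chil3: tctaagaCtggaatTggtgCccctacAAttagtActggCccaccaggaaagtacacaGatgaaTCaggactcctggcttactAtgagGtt
Chil4: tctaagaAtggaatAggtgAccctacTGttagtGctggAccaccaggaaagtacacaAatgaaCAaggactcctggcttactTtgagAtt

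Plac8 and Tgfbi shared no such stretch with another gene, Itgal shared 1 of 6403, and Ccr2, Itga4 and F10 shared 3.41%, 1.56% and 4.08% of theirs. The genes lie apart on different chromosomes of GRCm38, with Ccr2 at chr9:124101950-124113557 (+ strand), Ly6c2 at chr15:75108158-75111970 (- strand), Plac8 at chr5:100553725-100572245 (- strand) and Chil3 at chr3:106147554-106167564 (- strand). Itga4 is at chr2:79255426-79333123, Itgal at chr7:127296260-127335138, F10 at chr8:13037308-13056676 and Tgfbi at chr13:56609523-56639562, all on the + strand. All are protein coding, and only Itga4 overlaps another gene, Cerkl on the opposite strand, whose reads cannot be told apart from those of Itga4 without the strand of the library, which was not given in the sources used here.

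The stretches before the RefSeq start sites of Ly6c2, Plac8 and Tgfbi are shown because Ly6c2 and Tgfbi varied together across the samples and Plac8 did not follow them among the 12 tumor samples, although it did in part over all 15 (from −250 to −71, GRCm38.p6, on the gene's strand). Capitals mark matches to motifs that were searched on both strands from 250 bases before to 50 bases after the start site, namely PU.1 (GAGGAAG), C/EBP (TTGCNNAA), RUNX (TGTGGT), IRF (GAAA, any 2 bases and GAAA), AP-1 (TGANTCA) and the TATA box (TATAAA).

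Ly6c2, chr15:75112042-75112221: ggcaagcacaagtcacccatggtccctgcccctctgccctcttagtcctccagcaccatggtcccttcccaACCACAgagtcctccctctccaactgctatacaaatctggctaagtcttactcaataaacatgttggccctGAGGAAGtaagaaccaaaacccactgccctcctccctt
Plac8, chr5:100572276-100572455: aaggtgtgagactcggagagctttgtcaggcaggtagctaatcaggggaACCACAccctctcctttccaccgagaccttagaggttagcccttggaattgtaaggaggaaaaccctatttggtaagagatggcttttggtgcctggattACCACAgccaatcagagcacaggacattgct
Tgfbi, chr13:56609336-56609515: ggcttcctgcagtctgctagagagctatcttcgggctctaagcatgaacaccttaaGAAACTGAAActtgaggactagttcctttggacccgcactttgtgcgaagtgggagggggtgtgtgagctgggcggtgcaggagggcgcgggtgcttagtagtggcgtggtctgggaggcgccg

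Of the 7 genes with a promoter in the RefSeq table (all but Itgal), the PU.1 motif was found in 1 (Ly6c2, at −108 and +27), against 13.6% of all 32851 promoters of the same length. The RUNX motif was found in 3 (Ly6c2, Plac8 and Itga4), against 16.8%, the IRF motif in 1 (Tgfbi), against 3.44%, and the TATA box in 1 (Chil3), against 13.6%. The C/EBP and AP-1 motifs were found in none of the 7, against 10.8% and 7.81%. A match is a run of letters and not a measured site.

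**Figure D1:**
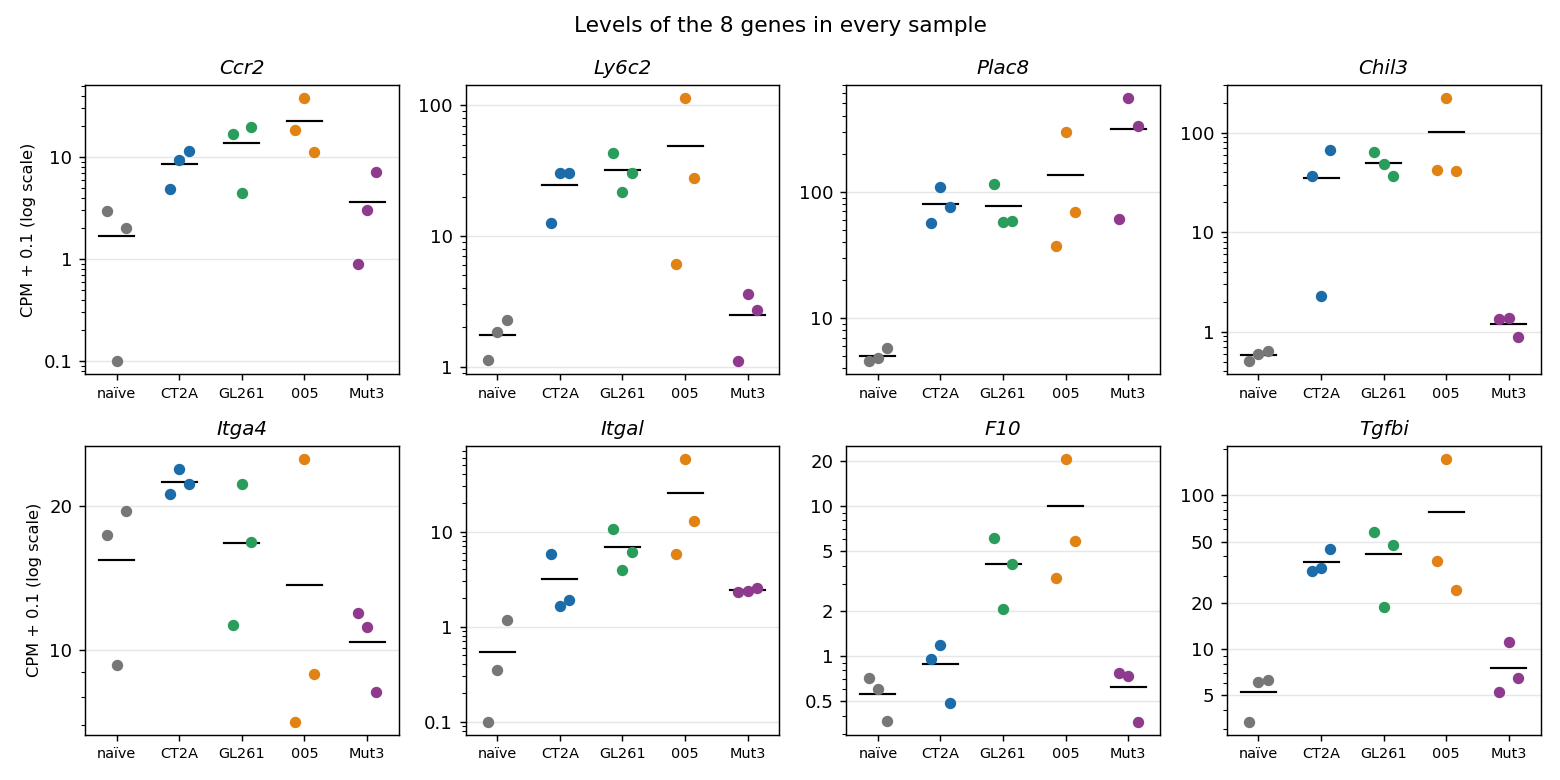
Level of each of the 8 genes (CPM + 0.1, log scale) in every sample of naïve brain and the 4 tumors; points are mice and lines are group means (n = 3). All but Itga4 and Plac8 have their highest group mean in 005 and, of the tumors, their lowest in Mut3, whereas Plac8 is highest in Mut3. The highest sample is 005 replicate 2 in 7 of the 8 genes, and none of them was called between 005 and GL261.

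Against naïve brain, 5 of the 8 genes were called higher in CT2A (Ly6c2, Plac8, Chil3, Itgal and Tgfbi), 7 in GL261 and 7 in 005 (all but Itga4), and 1 in Mut3 (Plac8), and none was called lower in any tumor (0 of 32 values lower by edgeR, also at an unadjusted p under 0.05, and 0 by DESeq2). Over all 17481 genes tested, the shares called higher were 19.0%, 14.6%, 11.6% and 17.9% in the same order, and those called lower 20.2%, 7.77%, 1.05% and 19.8%. The 8 genes were thus called higher more often than genes at large in CT2A, GL261 and 005, and 1 of 8 in Mut3 was near the background. They were chosen with earlier results of these data known, so this excess and those given below are not independent evidence. The share of all genes called higher in 005 depended on single samples, and was 17.6% without 005 replicate 3, 7.06% and 5.42% without 005 replicates 1 and 2, and 5.96% and 7.37% without naïve replicates 1 and 3, with 6 or 7 of the 8 genes called in each. Called in either direction in 005 were 12.7% of all genes, and 35.7% without 005 replicate 3. In GL261 the share called higher was 9.24% without naïve replicate 1, where 5 of the 8 genes were called. Their median log2 fold change was 2.84, 3.51, 4.55 and 0.85, against −0.04, −0.08, 0.01 and 0.11 for the median of all tested genes. All 3 tumor samples lay above all 3 naïve samples for 7 genes in CT2A (all but F10), 7 in GL261 and 7 in 005 (all but Itga4) and 3 in Mut3 (Plac8, Chil3 and Itgal), where 27.7%, 23.7%, 16.8% and 27.4% of all genes did so. These 4 comparisons share the same 3 naïve samples and are set side by side for that reason. With log2(TPM + 0.1) in limma, 4, 7, 7 and 1 of the genes were called higher, where 9.64%, 9.89%, 8.13% and 8.84% of all genes were. When only the 005 and naïve samples entered the fit, Plac8 and Chil3 were called in 005 and the other 5 fell just short of the threshold (adjusted p from 0.0529 to 0.0735), with fold changes in the same direction. In that fit 1.46% of all genes were called higher.

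**Figure D2:**
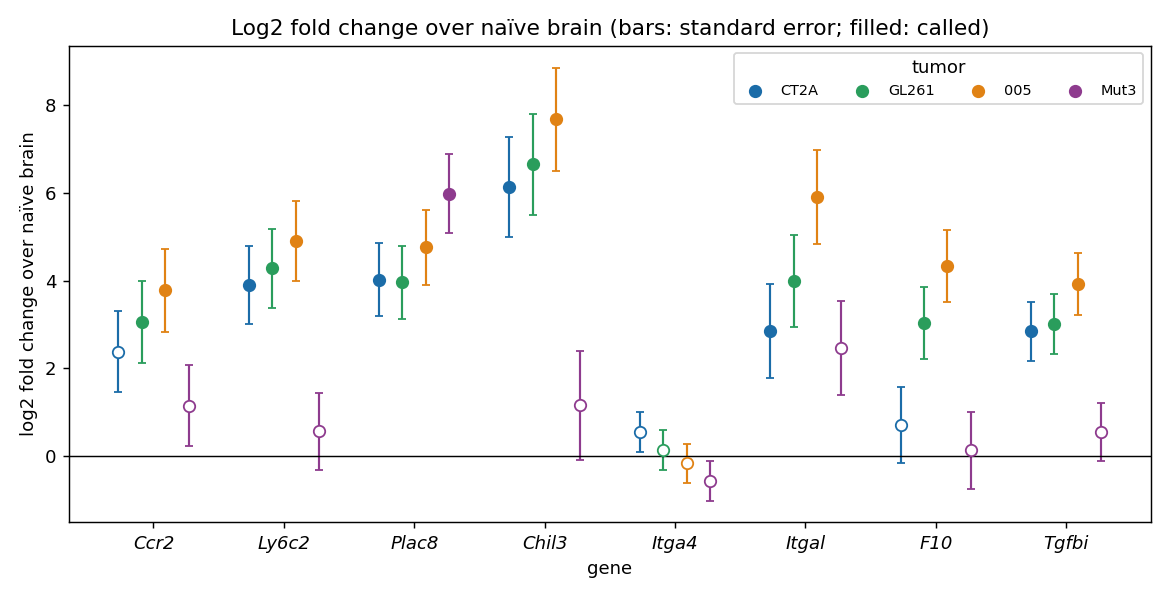
Log2 fold change of each gene in each tumor over naïve brain (edgeR, n = 3 per group); bars are standard errors, filled points are called and open points are not. Chil3 has the largest values in CT2A, GL261 and 005 (6.15 to 7.68) and Plac8 in Mut3 (5.99), while Itga4 lies between −0.57 and 0.54 in all 4.

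Ccr2, the receptor through which classical monocytes follow CCL2, was higher in GL261 and 005 than in naïve brain. Its level was 2.86, 0 and 1.89 CPM in naïve brain, where 0 counts in replicate 2 allow up to 0.747 CPM, and 4.76, 9.31 and 11.2 CPM in CT2A. It was 16.8, 4.36 and 19.4 CPM in GL261, 18.3, 37.7 and 11.2 CPM in 005, and 0.783, 2.89 and 6.95 CPM in Mut3. All CT2A, GL261 and 005 samples were above the naïve samples, and Mut3 overlapped with naïve brain and with CT2A and GL261. The log2 fold change over naïve brain was 3.06 (SE 0.94, adjusted p = 0.0313) in GL261, 3.78 (SE 0.95, adjusted p = 0.0178) in 005, 2.37 (SE 0.93, adjusted p = 0.0517) in CT2A and 1.14 (SE 0.92, adjusted p = 0.340) in Mut3. The GL261 call was lost without naïve replicate 2 or 3 or without GL261 replicate 1 or 3 (adjusted p from 0.0695 to 0.0973), and that in 005 without naïve replicate 3 (0.0595) or 005 replicate 2 (0.0698). CT2A passed the test when any of CT2A replicate 1, GL261 replicate 2, 005 replicate 2 or 3, or Mut3 replicate 1 or 3 was left out (adjusted p from 0.035 to 0.0472). It also passed by DESeq2 (2.46, adjusted p = 0.015), without the filter on low counts (0.0259) and with only CT2A and naïve brain in the fit (0.034). With TPM it did not pass. None of the steps between neighbours in the order 005, GL261, CT2A, Mut3 and naïve brain was called for Ccr2. In TPM its means were low, from 0.081 in naïve brain to 0.831 in 005.

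The chemokines that bind CCR2 or attract monocytes were described as a list of 4 genes (Ccl2, Ccl7, Ccl8 and Ccl12). By edgeR, 3, 1, 2 and 0 were called higher in CT2A, GL261, 005 and Mut3, where 19.0%, 14.6%, 11.6% and 17.9% of all genes were. In Mut3 the count was also 0 at an unadjusted p under 0.05 and by DESeq2. Ccl12, a mouse ligand of CCR2, was the member called in all 3 of the other tumors, with a log2 fold change of 3.78 in CT2A, 4.39 in GL261 and 3.80 in 005, and 1.14 (adjusted p = 0.137) in Mut3. It was 12.7, 6.48 and 11.6 CPM in naïve brain, 77.4, 124 and 224 CPM in CT2A, 275, 189 and 182 CPM in GL261, 189, 174 and 66 CPM in 005 and 6.38, 20.6 and 40.8 CPM in Mut3. All samples of CT2A, GL261 and 005 were thus above all those of naïve brain and Mut3, and Ccl12 was lower in Mut3 than in each (log2 fold change −2.64, −3.25 and −2.66, adjusted p = 0.00964, 0.00369 and 0.00869).

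Ccl8, a monocyte chemokine, was 15.7, 19.4 and 16.5 CPM in naïve brain and 382, 3751 and 300 CPM in 005, where 005 replicate 2 stood far above the other 2 samples. Its log2 fold change was 6.42 (adjusted p = 0.00186) in 005 over naïve brain, 5.75 (adjusted p = 0.00471) over CT2A and 4.12 (adjusted p = 0.0205) over GL261. It was not called in GL261 (2.30, adjusted p = 0.0556), CT2A (0.68, adjusted p = 0.515) or Mut3 (0.57, adjusted p = 0.590) over naïve brain.

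Ccl2, the main ligand of CCR2, and Ccl7 were called higher in CT2A by a small margin (log2 fold change 1.03, adjusted p = 0.0261, and 1.19, adjusted p = 0.0473). On the TPM scale the mean of Ccl2 was 63.6 ± 15.7 in naïve brain and 64.1 ± 15.1 in CT2A (SD, n = 3), so that this difference was not seen there, and that of Ccl7 was 15.9 ± 0.835 and 18.1 ± 7.12. Ccl2 was lower in Mut3 than in CT2A, GL261 and 005 (log2 fold change −1.49, −1.35 and −1.27, adjusted p = 0.0108, 0.0165 and 0.0193), with 95.6 to 114 CPM in Mut3 against 132 to 392 CPM in these tumors. Its mean in Mut3 was also the lowest in TPM (25.9 ± 1.94).

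**Figure D3:**
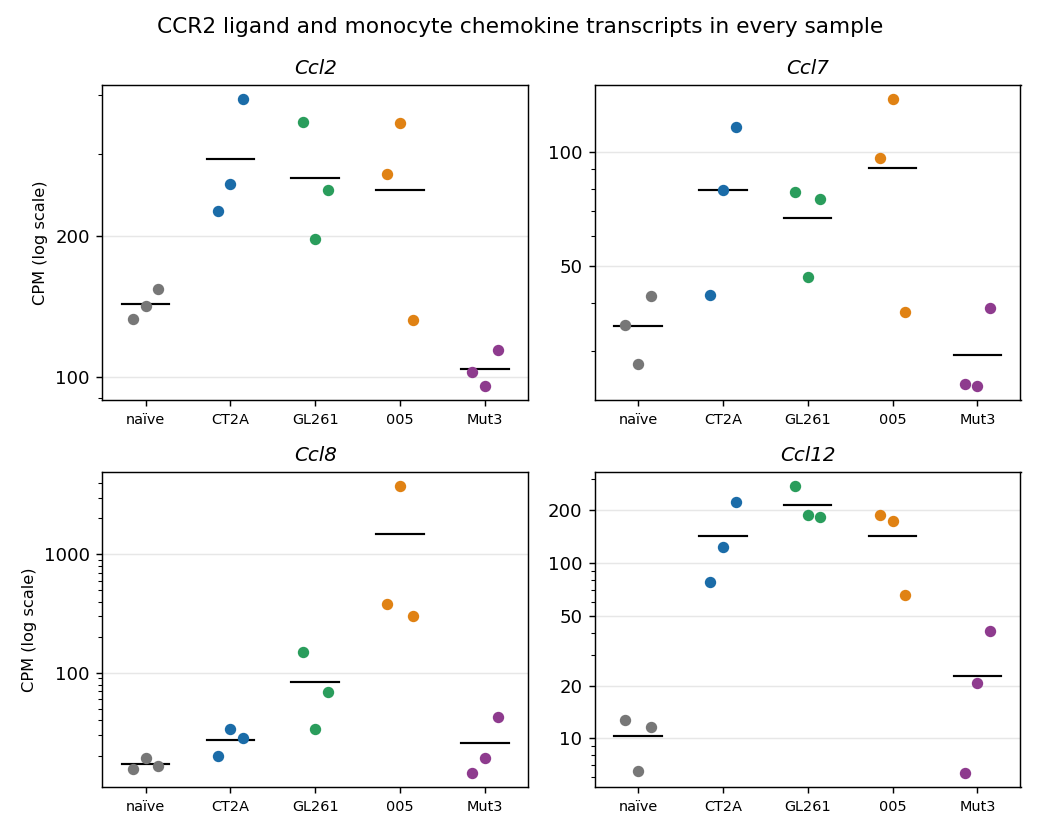
Level (CPM, log scale) of 4 chemokine genes in every sample of naïve brain and the 4 tumors; points are mice and lines are group means (n = 3). Ccl12 separates CT2A, GL261 and 005 (66 to 275 CPM) from naïve brain and Mut3 (6.38 to 40.8 CPM), and Ccl8 is highest in 005.

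Ly6c2, which encodes a Ly6C protein of classical monocytes, was higher in CT2A, GL261 and 005 than in naïve brain. It was 1.02, 1.74 and 2.16 CPM in naïve brain, 12.6, 30.4 and 30.1 CPM in CT2A and 43.3, 21.7 and 30.3 CPM in GL261. It was 5.97, 113 and 27.7 CPM in 005 and 1.01, 3.52 and 2.64 CPM in Mut3. The 005 samples spanned the widest range, with 005 replicate 1 the lowest and replicate 2 the highest of the 9 samples of these 3 tumors, and Mut3 overlapped only with naïve brain. As a log2 fold change over naïve brain, this was 3.90 (SE 0.89, adjusted p = 0.00451) in CT2A and 4.28 (SE 0.90, adjusted p = 0.00481) in GL261. In 005 it was 4.91 (SE 0.91, adjusted p = 0.00368), and in Mut3 0.55 (SE 0.88, adjusted p = 0.641). Fitted with only the 005 and naïve samples, the 005 value was 4.97 with an adjusted p of 0.0559.

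Ly6c1, which is nearly identical in its coding sequence (above) and is made by endothelial cells as well as leukocytes, had another order. It was 45.6 to 76.3 CPM in naïve brain, and in the tumors 36.6 to 58.7 CPM (CT2A), 233 to 576 CPM (GL261), 80.6 to 934 CPM (005) and 11.2 to 25.9 CPM (Mut3). Ly6c1 was thus higher than naïve brain in GL261 and 005 (log2 fold change 2.55 and 2.71) but not in CT2A (−0.42), where Ly6c2 was. Of the other Ly6 genes on the list, Ly6a was called in GL261 and 005 (4.51 and 4.02) and Ly6i in the same tumors (4.77 and 5.42). Ly6e was called in all 4, higher in CT2A, GL261 and 005 (1.34, 3.05 and 1.63) and lower in Mut3 (−1.32). Because so many stretches are shared, the split of reads between Ly6c2 and Ly6c1 rests on how the quantification assigned reads that match both.

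Chil3, which encodes the chitinase-like lectin Ym1 of myeloid precursors and alternatively activated macrophages, had the largest fold changes of the 8 genes in CT2A, GL261 and 005. It was 0.408, 0.498 and 0.541 CPM in naïve brain, which is 2 counts in each sample and below the floor of 3 counts. It was 36.6, 2.17 and 66 CPM in CT2A, 64.3, 48 and 36.9 CPM in GL261 and 42.1, 222 and 40.9 CPM in 005. It was 1.23, 1.26 and 0.792 CPM in Mut3, so that every Mut3 sample lay above naïve brain and below every other tumor sample, and CT2A replicate 2 was far below the other 2 CT2A samples. Over naïve brain, the log2 fold change was 6.15 (SE 1.14, adjusted p = 0.00165) in CT2A and 6.65 (SE 1.16, adjusted p = 0.00153) in GL261. In 005 it was 7.68 (SE 1.18, adjusted p = 0.00186), and in Mut3 1.15 (SE 1.25, adjusted p = 0.482). With 6 counts in naïve brain in all, the ratio of the summed levels was 77.5 (95% interval 35.5 to 212) in CT2A, 99.5 (45.5 to 272) in GL261, 185 (85 to 505) in 005 and 2.23 (0.914 to 6.56) in Mut3, an exact interval that covers counting error only.

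Chil4, the paralog of Chil3, had 1 count in GL261 replicate 2 and 0 in the other 14 samples, and was not tested. Chil1, a related gene of astrocytes and macrophages, was called higher in CT2A (log2 fold change 2.92) and lower in Mut3 (−2.31), and Chia1, an acidic chitinase, was called lower in Mut3, where it had 0 TPM. Neutrophils also transcribe Chil3, and the summed level of 10 neutrophil markers was 15.2 to 22.7 CPM in naïve brain, and in the tumors 27.5 to 42.1 CPM (CT2A), 22.6 to 27.9 CPM (GL261), 38 to 95.5 CPM (005) and 31.9 to 58.1 CPM (Mut3). Of the 6 neutrophil markers that were tested, 0, 2, 3 and 1 were called higher in CT2A, GL261, 005 and Mut3 by edgeR, where 19.0%, 14.6%, 11.6% and 17.9% of all genes were. In CT2A, 1 was higher at an unadjusted p under 0.05 and 0 by DESeq2, and Ly6g had 0 counts in all Mut3 samples. The single markers differed in direction, since Cxcr2 was higher in Mut3 than in GL261 (log2 fold change 2.47, adjusted p = 0.00468) and Csf3r was lower (−2.75, adjusted p = 0.0224). The part of neutrophils in the level of Chil3 was not tested.

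Plac8, a small cysteine-rich protein of monocytes and granulocytes that some epithelia and tumors also make, was higher than naïve brain in all 4 tumors and was the gene called in Mut3. It was 4.49, 4.73 and 5.68 CPM in naïve brain, 56.3, 109 and 75.8 CPM in CT2A and 116, 57.2 and 59 CPM in GL261. It was 37.5, 297 and 69.7 CPM in 005 and 61.2, 552 and 334 CPM in Mut3. Every tumor sample was at least 37.5 CPM and no naïve sample above 5.68 CPM, and Mut3 replicate 1 lay within the range of the other tumors while Mut3 replicates 2 and 3 were above every sample of them. The log2 fold change over naïve brain was 4.02 (SE 0.83, adjusted p = 0.00282) in CT2A and 3.96 (SE 0.83, adjusted p = 0.00479) in GL261. In 005 it was 4.76 (SE 0.86, adjusted p = 0.00303), and in Mut3 5.99 (SE 0.90, adjusted p = 4.43e-04). These calls held in all 24 alternative settings, with the Mut3 value between 4.32 and 6.49.

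Mut3 had more Plac8 than CT2A, GL261 and 005 by 1.97, 2.03 and 1.23 on the log2 scale, none of which passed the test (adjusted p = 0.0907, 0.0687 and 0.243, 95% intervals 0.40 to 3.54, 0.46 to 3.61 and −0.31 to 2.76). In TPM, Plac8 had the highest mean of the 8 genes in each of the 5 groups, from 3.35 in naïve brain to 120 in Mut3. Markers of other cells were set beside these levels. The summed level of 12 macrophage markers (among them Adgre1, Cd68, Csf1r and Aif1) was 154, 339 and 385 CPM in Mut3 against 266 to 310 CPM in naïve brain and 669 to 2601 CPM in the other tumors, so that 2 of the Mut3 samples were above naïve brain. That of 10 T cell markers was 11.4 to 27.2 CPM in Mut3, 5.92 to 33.6 CPM in naïve brain and 38.2 to 500 CPM in the other tumors, and Cd5 had 0 counts in all Mut3 samples. The 10 neutrophil markers summed to 32.2, 58.1 and 31.9 CPM in Mut3, above all naïve samples, and were highest in Mut3 replicate 2, as Plac8 was. Of the 6 that were tested, Cxcr2 alone was called higher in Mut3 over naïve brain (log2 fold change 1.48, adjusted p = 0.0228). S100a8, S100a9, Csf3r and Retnlg were 0.15, 0.35, −0.12 and 1.85, none of them called. In naïve brain these had 28, 11, 16 and 2 counts in all, while Cxcr2 had 144. The neutrophil sum in naïve brain and Mut3 thus followed Cxcr2 more than these genes. Ptprc, a gene of leukocytes at large, was 9.4, 2.27 and 11.1 CPM in Mut3 against 4.49, 1.74 and 1.89 CPM in naïve brain. Over the 15 samples the correlation of Plac8 with the neutrophil sum was 0.654, and over the 12 tumor samples 0.321. Its values over the 15 samples were larger in size with the sums of 4 proliferation markers (0.815) and of the neuron markers (−0.775). Over the 12 tumor samples these were 0.192 and −0.505. The part of neutrophils or other cells in the level of Plac8 was not tested. The sample with the most Plac8, Mut3 replicate 2, had 339 CPM of macrophage markers and 3.52 CPM of Ly6c2, while 005 replicate 2, with 297 CPM of Plac8, had 2601 and 113 CPM.

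**Figure D4:**
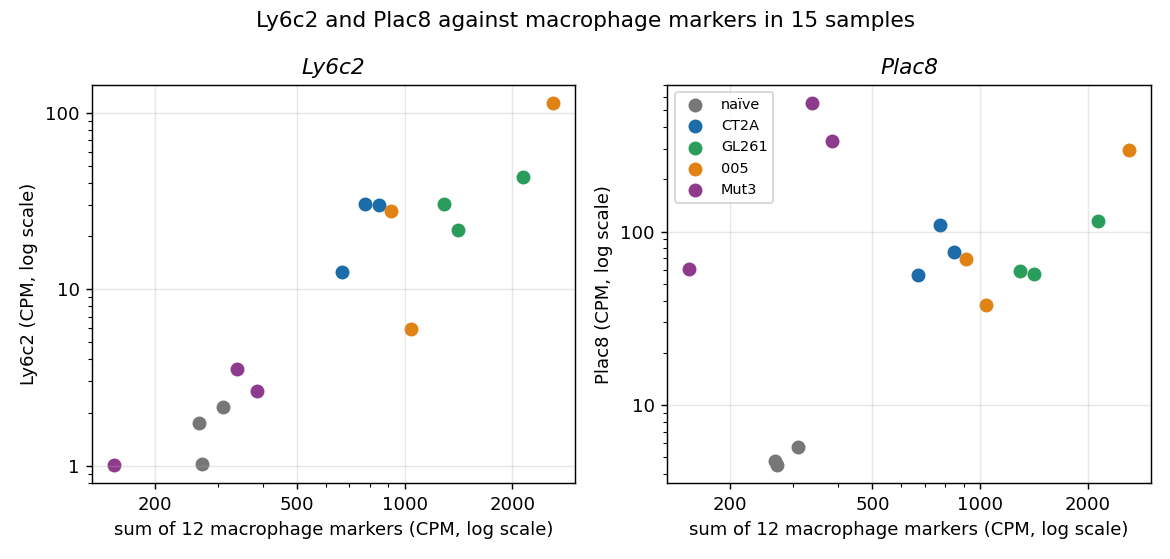
Level of Ly6c2 (left) and Plac8 (right) against the summed level of 12 macrophage markers (all in CPM, log scales); each point is 1 of the 15 samples, colored by group. Ly6c2 is low in both naïve brain and Mut3, where the sum is at most 385 CPM, whereas Plac8 is 61.2 to 552 CPM in Mut3 and 4.49 to 5.68 CPM in naïve brain at similar sums.

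Itga4, the α4 integrin chain that is often used to tell blood-derived macrophages from microglia, was called in 0 of 11 comparisons by edgeR (1 at an unadjusted p under 0.05, lower in Mut3 than in CT2A) and in 0 by DESeq2. It was 17.3, 9.22 and 19.5 CPM in naïve brain, 21.1, 23.7 and 22.1 CPM in CT2A and 11.2, 22.1 and 16.7 CPM in GL261. It was 7, 25 and 8.83 CPM in 005 and 11.9, 11.1 and 8.09 CPM in Mut3. The CT2A samples lay just above the naïve samples, and the others overlapped with them. As a log2 fold change over naïve brain, this was 0.54 (SE 0.45, adjusted p = 0.352) in CT2A and 0.12 (SE 0.45, adjusted p = 0.858) in GL261. In 005 it was −0.18 (SE 0.45, adjusted p = 0.809), and in Mut3 −0.57 (SE 0.46, adjusted p = 0.336). On the log2(TPM + 0.1) scale the CT2A and GL261 values turned negative (−0.30 and −0.51), below the level of a call as before. Cerkl, which overlaps Itga4, was 0.541 to 1.5 CPM in naïve brain and reached 17.2 CPM in CT2A and 14.1 CPM in GL261, and its part in the Itga4 counts was not tested.

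Itgal, the αL chain of LFA-1 on most leukocytes, was higher in CT2A, GL261 and 005 than in naïve brain. It was 0, 0.249 and 1.08 CPM in naïve brain, which is 5 counts in all, and 5.74, 1.55 and 1.81 CPM in CT2A. It was 10.6, 3.88 and 6.07 CPM in GL261, 5.77, 58.1 and 13 CPM in 005 and 2.24, 2.26 and 2.46 CPM in Mut3. All tumor samples were above the naïve samples, 005 replicate 2 was more than any other sample, and the Mut3 samples were alike and within the range of CT2A. Over naïve brain, the log2 fold change was 2.85 (SE 1.07, adjusted p = 0.0440) in CT2A and 4.00 (SE 1.06, adjusted p = 0.0165) in GL261. In 005 it was 5.90 (SE 1.07, adjusted p = 0.00317), and in Mut3 2.45 (SE 1.07, adjusted p = 0.0804). The ratio of summed levels was 8.01 (95% interval 3.27 to 25.4), 16.4 (6.83 to 51.3), 56.6 (24.2 to 175) and 5.89 (2.4 to 18.7) in the same order. The CT2A call was lost without naïve replicate 1 or 2, CT2A replicate 1 or 3, GL261 replicate 3 or Mut3 replicate 2 (adjusted p from 0.0546 to 0.170), with the replicate number as a block (0.0738), with library size in place of TMM (0.0520), and with TPM (0.92, adjusted p = 0.247). That in GL261 was lost without naïve replicate 1 (0.0622) or 2 (0.0534), and Mut3 was called without naïve replicate 3 (4.18, adjusted p = 0.0420) or 005 replicate 2 (2.45, adjusted p = 0.0393), and by DESeq2 (2.49, adjusted p = 0.0356).

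The β chains that pair with α4 and αL were described as a list of 3 genes. Called higher in CT2A, GL261, 005 and Mut3 were 2, 2, 3 and 1, where 19.0%, 14.6%, 11.6% and 17.9% of all genes were. Itgb1, which pairs with α4 and with many other α chains and is widely expressed, was called in all 4 (log2 fold change 2.60, 2.24, 1.92 and 2.59 in CT2A, GL261, 005 and Mut3). Itgb2, the β chain of LFA-1 and Mac-1 in leukocytes, was called in CT2A, GL261 and 005 (2.13, 3.02 and 3.72) and was 0.66 (adjusted p = 0.377) in Mut3. It was 3.24 to 10.6 CPM in Mut3 and 28.5 to 129 CPM in 005. Itgb7, which pairs with α4 on lymphocytes, was called in 005 (3.77, adjusted p = 0.00752), where it was 11.6, 20.4 and 3.28 CPM against at most 1.25 CPM in naïve brain.

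Of 8 ligands of these integrins, 7 were tested, and 1, 4, 2 and 3 were called higher and 1, 0, 0 and 0 lower in CT2A, GL261, 005 and Mut3. Among all genes, 19.0%, 14.6%, 11.6% and 17.9% were called higher and 20.2%, 7.77%, 1.05% and 19.8% lower. Vcam1, the vessel ligand of VLA-4, was called in CT2A (2.61). Icam1, the main ligand of LFA-1, was called in GL261, 005 and Mut3 (3.49, 2.99 and 1.78), and Icam2 in GL261 (3.90). Jam2, a junction protein that VLA-4 binds, was higher in Mut3 (2.60) and lower in CT2A (−1.17).

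F10, the zymogen of the protease that turns prothrombin into thrombin, was higher in GL261 and 005 than in naïve brain. It was 0.612, 0.498 and 0.27 CPM in naïve brain, or 6 counts in all, and 0.855, 1.09 and 0.388 CPM in CT2A. It was 6.01, 1.94 and 4 CPM in GL261, 3.19, 20.5 and 5.77 CPM in 005 and 0.671, 0.629 and 0.264 CPM in Mut3. Every GL261 and 005 sample was above every sample of the other 3 groups, which overlapped with each other at or near the floor. The log2 fold change over naïve brain was 3.04 (SE 0.82, adjusted p = 0.0185) in GL261, 4.34 (SE 0.83, adjusted p = 0.00403) in 005, 0.70 (SE 0.87, adjusted p = 0.537) in CT2A and 0.12 (SE 0.88, adjusted p = 0.925) in Mut3. The ratio of summed levels was 8.08 (95% interval 3.54 to 22.7) in GL261 and 18.5 (8.4 to 50.9) in 005. The GL261 call was lost without naïve replicate 1 or 3 or GL261 replicate 1 (adjusted p from 0.0508 to 0.0592).

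Of 15 other coagulation genes, 7 had enough counts to be tested, and 3, 1, 1 and 2 were called higher in CT2A, GL261, 005 and Mut3, where 19.0%, 14.6%, 11.6% and 17.9% of all genes were. By edgeR 0 were called lower (1 of 28 values at an unadjusted p under 0.05, and 0 by DESeq2), where 20.2%, 7.77%, 1.05% and 19.8% of all genes were. F2r, the thrombin receptor PAR1, was called in CT2A, 005 and Mut3 (5.21, 3.56 and 3.41), and F2rl2, a related receptor, in CT2A (2.99). Tfpi, the inhibitor of factor Xa and tissue factor, was called in CT2A, GL261 and Mut3 (2.13, 2.58 and 2.87). F2, F7, F9, Proc and 4 more of the list were not tested.

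Tgfbi, the matrix protein βig-h3, was higher in CT2A, GL261 and 005 than in naïve brain. It was 3.26, 5.98 and 6.22 CPM in naïve brain, 32.1, 33.4 and 44.6 CPM in CT2A and 57.8, 18.6 and 47.2 CPM in GL261. It was 37.1, 172 and 24 CPM in 005 and 5.15, 10.9 and 6.33 CPM in Mut3. The Mut3 samples overlapped with naïve brain, and no sample of the other tumors did. As a log2 fold change over naïve brain, this was 2.84 (SE 0.68, adjusted p = 0.00559) in CT2A and 3.00 (SE 0.68, adjusted p = 0.00762) in GL261. In 005 it was 3.92 (SE 0.70, adjusted p = 0.00297), and in Mut3 0.54 (SE 0.66, adjusted p = 0.534).

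The 9 genes of the TGF-β pathway that were listed beside Tgfbi did not have this pattern as a group, with 3, 1, 1 and 2 called higher in CT2A, GL261, 005 and Mut3 and 1 lower in Mut3. The background of all genes called higher was 19.0%, 14.6%, 11.6% and 17.9%. Tgfbr2, the type II receptor, was called in CT2A, GL261 and 005 (1.29, 1.58 and 2.34) and was −0.12 in Mut3. Tgfb3, a ligand, was called in CT2A and Mut3 (1.56 and 1.14), as was the type I receptor Tgfbr1 (1.12 and 1.35), and Smad7, an inhibitor of the pathway, was lower in Mut3 (−2.86). Tgfb1, the ligand most studied in tumor macrophages, lay between −1.0 and 0.098 and was not called.

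Between the tumors themselves, 14 of the 48 values (8 genes in 6 pairs) were called, and 13 of the 14 were lower in Mut3. Of all genes in the 6 pairs 10.7% were called, in the 3 pairs with Mut3 10.6% were called lower in Mut3, and in the 3 pairs without it 4.83% were called in either direction. The members accordingly had 13 of 24 values lower in Mut3 and 1 of 24 called in the pairs without Mut3. Mut3 was lower than CT2A in Ly6c2, Chil3 and Tgfbi, lower than GL261 in these and F10, and lower than 005 in these, F10, Ccr2 and Itgal, which is 3, 4 and 6 of the 8 genes where 6.61%, 11.1% and 14.0% of all genes were called lower. The log2 fold change of Chil3 was −4.99 (SE 0.98, adjusted p = 0.00426) against CT2A, −5.50 (SE 1.00, adjusted p = 0.00296) against GL261 and −6.53 (SE 1.04, adjusted p = 0.00148) against 005. That of Ly6c2 was −3.34 (adjusted p = 0.0147), −3.73 (adjusted p = 0.00892) and −4.35 (adjusted p = 0.00420), and that of Tgfbi −2.30 (adjusted p = 0.0296), −2.46 (adjusted p = 0.0195) and −3.38 (adjusted p = 0.00462). F10 was the gene called in a pair without Mut3, higher in 005 than in CT2A by 3.64 (SE 0.75, adjusted p = 0.0160), as 1.99% of all genes were.

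Several of these calls rested on single samples. Ccr2 in Mut3 against 005 (−2.64, adjusted p = 0.0418) was lost in 9 of the 15 fits with 1 sample left out (adjusted p from 0.0504 to 0.127) and with the replicate number as a block (0.0539). F10 in 005 against CT2A was lost without CT2A replicate 2 (0.0634), CT2A replicate 3 (0.101) or 005 replicate 2 (2.52, 0.0583), and F10 in Mut3 against GL261 without Mut3 replicate 3 (0.0584). Itgal in Mut3 against 005 (−3.45, adjusted p = 0.0131) was lost without 005 replicate 2 (−2.01, 0.0763) or Mut3 replicate 1 (0.0519), and Ly6c2 in Mut3 against CT2A without Mut3 replicate 1 (0.0621). Tgfbi in Mut3 was lost against CT2A without CT2A replicate 3 (0.0843) or Mut3 replicate 1 (0.101) or 3 (0.0796), and against GL261 without GL261 replicate 3 (0.0548) or Mut3 replicate 1 (0.0712) or 3 (0.0558). With only the groups compared in the fit, Ccr2, Ly6c2 and Itgal in Mut3 against 005 were lost (0.0783, 0.053 and 0.053). F10 in 005 against CT2A was lost there too (0.115). All of these kept their direction, and 14 values over the pairs were called in that setting as well.

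**Figure D5:**
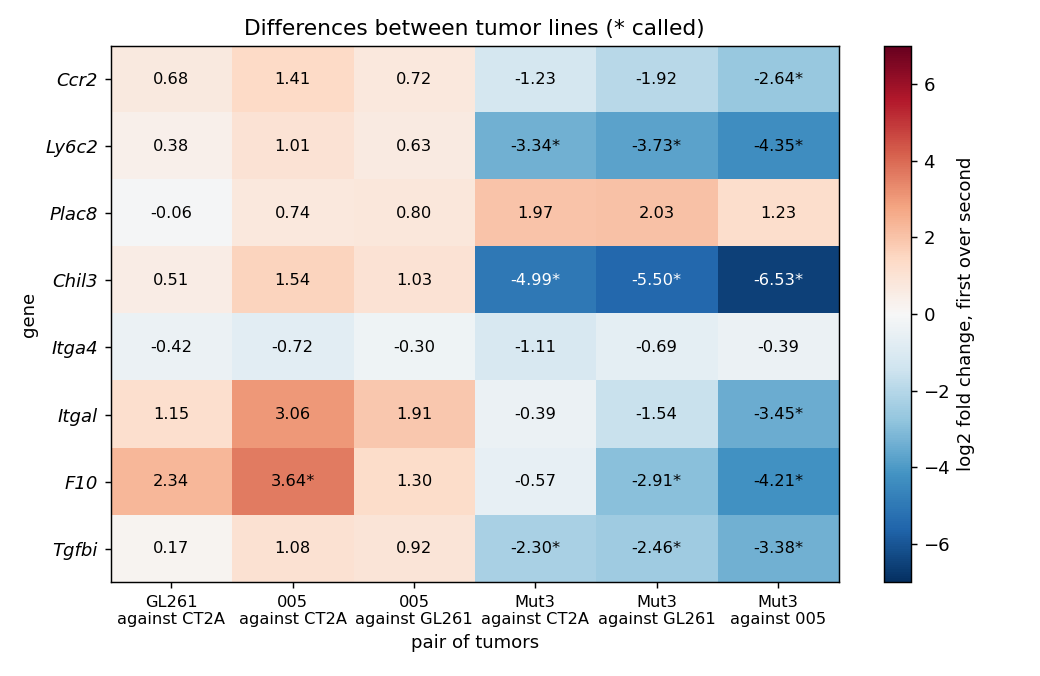
Log2 fold change of the 8 genes in each of the 6 pairs of tumors, the tumor named first over the other (edgeR, n = 3 per group); asterisks mark calls. The 13 calls in the 3 columns of Mut3 are all negative, Plac8 is positive there without a call, and 1 value is called in the other 3 columns (F10, 3.64).

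The study set GL261 and 005 against CT2A and Mut3 as classes that it drew from these same samples, so this contrast is not independent evidence of its direction. Of the 8 genes, 5 were called higher in GL261 and 005, where 12.6% of all genes were, namely F10 (log2 fold change 3.28, SE 0.53, adjusted p = 0.00174), Chil3 (3.52, SE 0.64, adjusted p = 0.00299), Ly6c2 (2.37, SE 0.55, adjusted p = 0.00985), Tgfbi (1.77, SE 0.45, adjusted p = 0.0140) and Itgal (2.30, SE 0.58, adjusted p = 0.0147). Ccr2 was 1.66 (adjusted p = 0.0571), Itga4 −0.01 (adjusted p = 0.985) and Plac8 −0.64 (adjusted p = 0.379). Without 005 replicate 2, Plac8 was called lower (−1.31, adjusted p = 0.0472), and Ccr2 was called higher without naïve replicate 2, GL261 replicate 2, 005 replicate 3 or Mut3 replicate 3 (adjusted p from 0.031 to 0.0485). Ccr2 was also called by DESeq2 (1.62, adjusted p = 0.0263), with library size (0.0495), without the filter on low counts (0.0273) and by limma on log2(TPM + 0.1) (0.0302). F10 was the gene for which all 6 GL261 and 005 samples lay above all 6 samples of the other tumors, as 1.90% of all genes did. Ly6c2, Chil3 and Tgfbi were called lower in Mut3 than in CT2A (above), although CT2A replicate 2 had 2.17 CPM of Chil3, near the Mut3 samples. None of the 3 was called between GL261 and CT2A (log2 fold change 0.38, 0.51 and 0.17, with 95% intervals of −1.18 to 1.95, −1.20 to 2.21 and −1.14 to 1.47).

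In 7 of the 8 genes the highest sample of all 15 was 005 replicate 2, and in Plac8 it was Mut3 replicate 2. This sample held 2601 CPM of the 12 macrophage markers and 500 CPM of the 10 T cell markers, the highest sums of any sample, where the other 005 samples had 914 and 1040 CPM and 84.4 and 172 CPM. Its neuron markers summed to 166 CPM, the lowest of the 005 samples. Without it, 6 of the 8 genes were called higher in 005 than in naïve brain in place of 7 (Ccr2 lost). With 005 replicate 3 and GL261 replicate 2, the samples with the most neuron transcripts of their groups, both left out, 6, 7, 7 and 1 genes were called higher in CT2A, GL261, 005 and Mut3. Of all genes, 18.6%, 14.9%, 17.3% and 18.3% were then called higher.

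The 22 other genes of monocytes and marrow-derived macrophages had 14, 13, 17 and 6 members called higher and 1, 1, 0 and 1 lower in CT2A, GL261, 005 and Mut3. Among all genes, 19.0%, 14.6%, 11.6% and 17.9% were called higher and 20.2%, 7.77%, 1.05% and 19.8% lower. These shares are the background for each list in this paragraph. Ms4a4c, a monocyte membrane protein, was called in CT2A, GL261 and 005 (5.35, 5.89 and 4.97) and was not in Mut3 (adjusted p = 0.253). Ms4a6c, of the same gene family, was called in all 4 (5.18, 5.59, 5.27 and 2.90) and was lower in Mut3 than in the other 3 (−2.28, −2.69 and −2.37). Gpr141, a myeloid receptor with 0 counts in naïve brain, was called in CT2A, GL261 and 005. S100a4 and Vcan were called in all 4 tumors, S100a4 with its largest value in CT2A (6.46) and Vcan in Mut3 (5.93), and both are also made by mesenchymal or glial cells. The other calls in Mut3 were Fn1, Ahnak and Cd44, which were higher (1.34, 2.29 and 2.21), and Gda, which was lower (−4.90). Gda was also the gene called lower in CT2A and GL261 (−3.62 and −2.45), and had a mean of 5.69 TPM in naïve brain. The lists of other cells moved as well. The 12 macrophage markers had 10, 11, 11 and 0 members called higher in CT2A, GL261, 005 and Mut3, and 2 lower in Mut3 (Itgam and Csf1r, −1.56 and −1.15). The 9 T cell markers that were tested had 6, 7, 8 and 0 called higher by edgeR, and Cd4 was called lower in CT2A (−2.76) and Mut3 (−2.91). In Mut3, 0 macrophage and 2 T cell markers were higher at an unadjusted p under 0.05, and 0 and 1 were called by DESeq2. Of 12 microglia markers, 1, 3, 0 and 1 were called higher and 4, 0, 0 and 7 lower. The part of any of these cells in the level of the 8 genes was not tested.

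Across the 15 samples, which differ in group, depth and tissue makeup, Pearson correlations of log2 CPM describe which genes varied together. Ly6c2 and Tgfbi had the highest value of the 8 genes' pairs over all samples (r = 0.935, and 0.898 in the 12 tumor samples), followed by Chil3 and Tgfbi (0.896). In the 12 tumor samples alone the highest pair was Itgal and F10 (0.915, and 0.830 in all 15). Plac8 had values of 0.637 with Itgal, 0.548 with Ccr2, 0.492 with Tgfbi and 0.485 with Ly6c2 over the 15 samples, which include naïve brain. Among the 12 tumor samples its values with the other 7 lay between −0.378 and 0.0752. Over these 12, each gene was also set against the log2 sums of the macrophage and T cell markers. Ccr2 had 0.857 and 0.875, Ly6c2 0.902 and 0.9, and Chil3 0.851 and 0.847. Itgal had 0.683 and 0.803, F10 0.774 and 0.873, and Tgfbi 0.884 and 0.868. Plac8 had −0.123 and −0.117, and Itga4 0.339 and 0.278. Of all marker sums, NK cells gave the highest value for Ly6c2 (0.915). Which cells held these transcripts was not tested. Among 12894 genes with at least 1 TPM in a group, those most like Ly6c2 were Rac2, Gzmb and Pld4 (0.956, 0.955 and 0.955). Those most like Ccr2 were Il2rg, Bcl2a1a and Lcp1 (0.965, 0.928 and 0.925), and those most like Chil3 were Rac2, Birc3 and C1qb (0.936, 0.933 and 0.928). Tgfbi was most like Tlr2, Mir147 and AA467197 (0.980, 0.975 and 0.969). Itgal was most like C3, Cxcl9 and Gm2564 (0.955, 0.934 and 0.932). Plac8 was most like Lpcat3, Ostf1 and Necap2 (0.951, 0.930 and 0.920), and Itga4, with the lowest values, like Pcgf5, Wbp11 and Calr (0.778, 0.761 and 0.730).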

How the data were processed

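RNA from 3 mice in each of 5 groups was sequenced, and the samples were grouped by their labels. Alignment by the authors was with STAR v2.4.2a on the mouse genome of GENCODE, with Picard for duplicates and RNA-SeQC for quality. The submitters' processing notes also name Salmon, mm10 and DESeq2 1.18.1, and the annotation release was not given in the sources used here. The authors deposited expected counts per gene, without normalization between samples, and TPM values, which are scaled to gene length and to the same total in each sample. Of the 46679 identifiers, 46201 matched GENCODE M21 (GRCm38), which gave symbols and positions, and 478 did not.

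Here the rounded expected counts went into edgeR 4.0.16 under R 4.3.3 (filterByExpr, TMM, quasi-likelihood test), in 1 fit of all 15 samples with the group as the only term, and adjusted p-values run over all 17481 genes tested. The steps were tested on simulated counts. Log2 CPM, which served for the correlations, used a prior count of 2, and this prior did not enter the fitted folds. The fitted folds of genes near 0 counts depend on edgeR's default settings. Alternatives were DESeq2 1.42.0, library size, other count filters, a fit of only the groups compared, limma 3.58.1 on log2(TPM + 1) and log2(TPM + 0.1), a replicate block, and each sample left out. Leaving out 005 replicate 3 and GL261 replicate 2 together was added after seeing the data. The 8 genes and all lists were chosen with earlier results of these data known. The genes named beside them are the 3 most correlated with each (those of F10 are not reported here), the chemokines, integrin partners and paralogs in full, and from each other list at most 4 called genes with the largest change. Tgfb1, the untested coagulation genes and the cell type markers were named in addition for their role, and Ms4a6c, Fn1, Ahnak, Cd44, Gda and Ptprc after their values were seen. Promoters came from RefSeq (GRCm38.p6), and coding sequences from GENCODE transcripts. Shared stretches of 31 bases were counted in transcripts of all genes. Mass cytometry and staining were not analysed here.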

Additional observations from a re-analysis of the deposited data

Results flagged for a closer look

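The 14 values called between tumors are differences between the responses of tumors measured against the same naïve brain, and each was flagged because the difference itself passed edgeR's quasi-likelihood test. Chil3 had −4.99 (CT2A), −5.50 (GL261) and −6.53 (005) in Mut3 on the log2 scale, Ly6c2 −3.34, −3.73 and −4.35, and Tgfbi −2.30, −2.46 and −3.38. F10 had −2.91 in Mut3 against GL261, −4.21 against 005, and 3.64 in 005 against CT2A. Ccr2 had −2.64 and Itgal −3.45 in Mut3 against 005. Groups of 3 samples are too small for a test of outlying samples.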

How the results depend on the processing

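Of 1255 values of the 8 genes under alternative settings, 1137 kept direction and side of the threshold, 66 lost a call, 24 gained one and 28 reversed, all 28 for values that were not called. Main counts of called genes were 5 (CT2A), 7 (GL261), 7 (005) and 1 (Mut3) over naïve brain, 5 between classes and 14 between pairs. A minimum of 10 counts in every sample gave 2, 2, 2, 1 class and 3 pair calls, by leaving only Plac8, Itga4 and Tgfbi tested; its Mut3 count did not move. Limma on log2(TPM + 1) gave 3 in CT2A, 4 in GL261 (6.01% and 5.95% of all genes called higher), 3 between classes and 8 between pairs. A fit of only the groups compared gave 2 in 005 and 2 in Mut3 (1.46% and 19.2% of all genes called higher, against 11.6% and 17.9%), and DESeq2 gave 2 in Mut3 (19.8%); the cause was not tested. With 1 sample left out, counts were 4 to 6, 5 to 7, 6 to 7 and 1 to 2 (2 in Mut3 without naïve replicate 3 or 005 replicate 2), 5 to 6 between classes and 11 to 17 between pairs. Library size in place of TMM moved the median of all genes in CT2A from −0.04 to −0.24.

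Values of uncalled genes that reversed were, with log2(TPM + 1) and log2(TPM + 0.1), Ly6c2 in Mut3 (−0.19, −0.38), Tgfbi in Mut3 (−0.14, −0.27), F10 in CT2A (−0.0053, −0.024) and in Mut3 (−0.040, −0.20), and Itga4 in CT2A (−0.11, −0.30), in GL261 (−0.17, −0.51) and between classes (0.023, 0.052). With 1 sample left out, Itga4 ranged from −0.13 (without GL261 replicate 2) to 0.47 in GL261, from −0.95 to 0.14 in 005 (positive without naïve replicate 3 or 005 replicate 1) and from −0.40 to 0.15 between classes (positive in 6 fits), and F10 in Mut3 from −0.12 to 0.44 (negative without naïve replicate 3 or Mut3 replicate 1 or 2). Itga4 was also −0.21 in GL261 without GL261 replicate 2 and 005 replicate 3, and 0.028 between classes with library size.

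Samples that share a replicate number are different mice. The correlation of their deviations from the group means was between −0.331 and 0.262, over 0.1 in 1 of 30 and in all 3 numbers for 0 of the 10 pairs of groups, so the numbers do not pair the samples. With the replicate number as a block, 4, 7, 7 and 1 genes were called over naïve brain, 5 between classes and 13 between pairs. Counts of the other lists were within 1.5 times in 388 of 460 alternatives. Depth limits Itgal, F10 and Chil3 most, with 5, 6 and 6 counts in naïve brain in all.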

Other observations

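The transcription factors and growth factor receptors of the monocyte lineage (13 genes, all tested) had 2, 3, 6 and 1 members called higher and 2, 0, 0 and 2 lower in CT2A, GL261, 005 and Mut3 over naïve brain. Among all genes, 19.0%, 14.6%, 11.6% and 17.9% were called higher and 20.2%, 7.77%, 1.05% and 19.8% lower. Runx1, a factor of blood cell development, was called in all 4 tumors (log2 fold change 5.42, 3.28, 4.62 and 2.73), and Runx3, which acts in lymphocytes and some myeloid cells, in 005 (5.10). Csf2rb, the shared chain of the GM-CSF receptor, was called in GL261 and 005 (2.82 and 4.00), and Kit, the receptor of stem cell factor that neurons also express, was lower in CT2A and Mut3 (−3.41 and −3.94). Spi1, which encodes PU.1, was 0.88, 1.1 and 1.32 in CT2A, GL261 and 005 and −1.85 in Mut3, none of them called, and was called in the contrast of GL261 and 005 with the other 2 tumors (1.69), whose classes the study drew from these samples. It was also called lower in Mut3 than in CT2A, GL261 and 005 (−2.73, −2.94 and −3.17). Spi1 was named after its values were seen.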
